A study of Mus musculus with 26 samples.

Results

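The promoters of Tbc1d4 and Nr3c2 are described here across 26 libraries of mouse embryonic stem cells (ESCs). A region was taken as a member if it overlapped 1.5 kb either side of the curated RefSeq start site of either gene (1 per gene, mm10). This gave 23 regions (11 at Tbc1d4, 12 at Nr3c2) of the 338442 listed in 12 tables, or 19 distinct intervals. The genes were chosen by their sequential ChIP (reChIP) values in the E14 line, where they were the highest promoters, so their E14 reChIP levels are a description and were not tested.

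In reChIP, chromatin pulled down with one antibody is pulled down again with a second one, so that fragments carrying both marks are enriched. The E14 cells were a non-clonal wild-type ESC line with 2 replicates of each ChIP, and the clone series had WT clones 57 and 58 and DPPA2/4 double knockout (DKO) clones 43 and 53, also given as E14 ESCs. All cells were grown in serum/LIF, and each experiment started from a pellet of 2000000 cells and MNase-digested chromatin. Each cell sample gave an in-line total H3K4me3 and an in-line total H3K27me3 (10% of the first pull-down) and a reChIP in both orders, K4-K27 (H3K4me3 first) and K27-K4 (H3K27me3 first), while IgG-IgG controls came from E14 replicate 1 and WT clone 57 only. E14 replicates 1 and 2 were sequenced in batches A and B and all clones in batch C, so that E14 and the clones cannot be told apart from their batches. Each genotype was represented by 2 clones, and p-values of DKO against WT measure the spread between those clones. The H3K4me3 antibody may also detect H3K4me2, per the study's methods.

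Bivalent chromatin carries H3K4me3, a mark of active promoters laid down by COMPASS-type complexes, together with H3K27me3, the mark of Polycomb repressive complex 2. In ESCs it lies mostly at CpG-rich promoters of silent developmental genes, and DPPA2 and DPPA4 are chromatin factors that help keep it at part of them. Tbc1d4 (AS160) encodes a Rab GTPase-activating protein that is phosphorylated by Akt after insulin and so releases GLUT4 vesicles to the surface of muscle and fat cells. Nr3c2 encodes the mineralocorticoid receptor, the nuclear receptor through which aldosterone controls sodium uptake in the kidney.

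The sequences of both start sites are shown because the members are single promoters whose CpG content is compared with other regions below. They run from 250 bases before to 50 bases after the RefSeq start site (GRCm38.p6), 5′ to 3′ on the strand of the gene, with each CpG in capitals. Tbc1d4 lies on the minus strand at chr14:101609142-101609441 and Nr3c2 on the plus strand at chr8:76902080-76902379.
Tbc1d4: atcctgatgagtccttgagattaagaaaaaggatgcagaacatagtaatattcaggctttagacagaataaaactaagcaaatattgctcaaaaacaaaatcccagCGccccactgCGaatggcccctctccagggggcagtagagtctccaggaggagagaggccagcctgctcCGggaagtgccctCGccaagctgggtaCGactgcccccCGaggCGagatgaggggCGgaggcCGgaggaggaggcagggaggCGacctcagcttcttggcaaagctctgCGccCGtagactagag
Nr3c2: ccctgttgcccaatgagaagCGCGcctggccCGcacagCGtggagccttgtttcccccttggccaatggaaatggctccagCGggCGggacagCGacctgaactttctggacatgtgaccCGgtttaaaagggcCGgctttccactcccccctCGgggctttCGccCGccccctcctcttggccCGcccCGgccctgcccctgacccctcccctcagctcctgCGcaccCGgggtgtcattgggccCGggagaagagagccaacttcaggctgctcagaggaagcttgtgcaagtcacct

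The Tbc1d4 window held 12 CpGs and the Nr3c2 window 17, against a median of 7 over 32851 RefSeq promoters of the same length. The number of CpGs was lower in 60.4% of those promoters than at Tbc1d4 and in 68.6% than at Nr3c2. On both strands, GGGCGG (the GC box) was found at position 228 of the Tbc1d4 window and at positions 83, 166 and 184 of the Nr3c2 window, while 35.7% of promoters held it at least once. The CCAAT box was found at Nr3c2 only, at positions 10, 63 and 239, and 37.4% of promoters held it. Neither window held TATAAA (13.6% of promoters).

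Both genes had 1 interval that was listed in the K4-K27 and the K27-K4 table of E14 alike. At Tbc1d4 it was chr14:101606851-101609700 (2850 bp), which covered the promoter, the start site and the first part of the gene, from -509 to 2340 bp relative to the start site. At Nr3c2 it was chr8:76898251-76904250 (6000 bp), from -4079 to 1920 bp, and it also held the start site of Gm10649, a non-coding RNA gene on the other strand. There were 21857 such shared E14 intervals, 12987 of them at promoters, and levels and ranks are given over these 21857 unless another table is named. A shared interval is a listing for both orders and not a call of bivalency, and the paper, which filtered its peaks, counted fewer regions. Levels are log2 RPM per kb of region (reads scaled to the total of the library, divided by region length), which allows regions of unequal length to be compared.

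**Figure D1:**
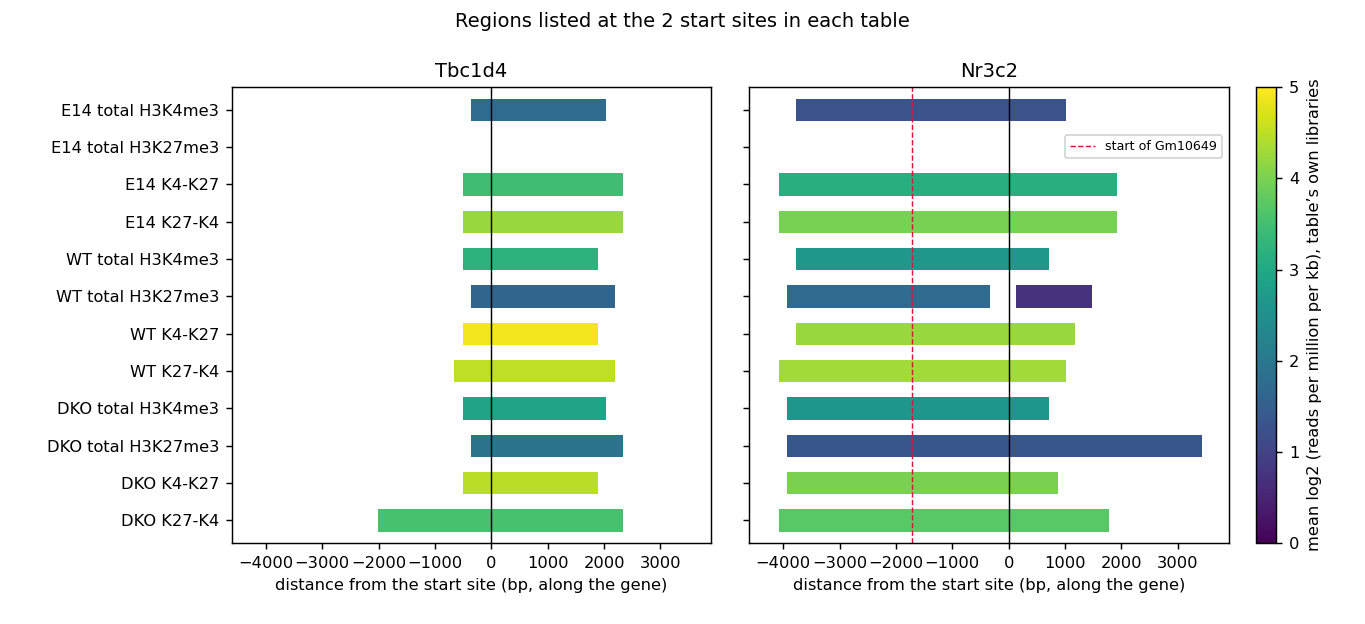
Member regions listed in each of the 12 tables (bars), by distance in bp from the start site (black line) of Tbc1d4 (left) and Nr3c2 (right) along the gene, coloured by the mean log2 RPM per kb in the libraries of that table. A bar covers or flanks both start sites in every table except E14 total H3K27me3, the WT total H3K27me3 table has 2 separate bars at Nr3c2, and the dashed line marks the start of Gm10649.

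The lengths of the listed regions differed between the tables, as the map of the regions shows. The E14 total H3K27me3 table listed no region within 1.5 kb of either curated start site, and 1 at Nr3c2 when predicted RefSeq start sites were included. Its nearest regions lay at -9359 to -9060 bp from the start site of Tbc1d4, and at -5279 to -4830 bp and 2371 to 3120 bp from that of Nr3c2. Every clone table listed both promoters, the tables of total H3K27me3 included.

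At the shared Tbc1d4 interval the E14 total H3K4me3 was 1.48 in replicate 1 and 1.52 in replicate 2, and the total H3K27me3 was 0.26 and -0.16. The E14 K4-K27 reChIP was 2.81 and 4.11, and the K27-K4 reChIP was 3.37 and 5.09. The E14 IgG-IgG control was -0.40. All 4 reChIP values therefore lay above all 4 totals, and replicate 2 was higher than replicate 1 in both orders. It ranked 17 and 1 of 21857 in the K4-K27 replicates and 2 in both K27-K4 replicates. In the totals it ranked 293 and 3585 for H3K4me3, and 3237 and 7462 for H3K27me3.

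At Nr3c2 the E14 total H3K4me3 was 0.91 and 1.03, and the total H3K27me3 was -0.04 and -0.14. The K4-K27 reChIP was 2.76 and 3.53, and the K27-K4 reChIP was 3.20 and 4.77, over an IgG-IgG level of -0.82. As at Tbc1d4, the reChIPs lay above the totals without overlap. For the K4-K27 replicates the interval ranked 31 and 5, and for the K27-K4 replicates 3 and 4, but 4174 and 6930 in total H3K4me3 and 6410 and 7240 in total H3K27me3.

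The mean over the 4 E14 reChIPs, on which the genes were selected, was 3.85 at Tbc1d4 (rank 2 of all shared intervals) and 3.56 at Nr3c2 (rank 3). The one higher interval, chr5:26006551-26007900 at 3.96, was at no promoter. The promoters just below them were Kif26b (3.54), 9330179D12Rik with Ccnd2 (3.54) and Adgrb1 (3.48), close below Nr3c2. With the E14 IgG-IgG level subtracted, Tbc1d4 was at 4.25 and rank 72, and Nr3c2 at 4.38 and rank 46.

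Few reads lay behind some of these values. The Tbc1d4 interval held 19 reads in the E14 IgG-IgG library, 42 and 81 in total H3K27me3, and 199 to 4636 in the reChIPs. Its total H3K27me3 was 1.59-fold (exact 95% interval 0.902 to 2.89) and 1.18-fold (0.710 to 2.06) the IgG-IgG level, so that enrichment over IgG was not detectable at this depth in either replicate. At Nr3c2 the same ratios were 1.72 (1.11 to 2.73) and 1.60 (1.08 to 2.44), both above 1 by their intervals. The K27-K4 level at Tbc1d4 was 13.7-fold over IgG-IgG in replicate 1, from which the IgG-IgG library came, and 44.9-fold in replicate 2, and at Nr3c2 it was 16.2-fold and 48.0-fold. These reChIP folds are high by the choice of the genes and are given as a description. The intervals cover counting error only, and duplicate reads were kept.

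**Figure D2:**
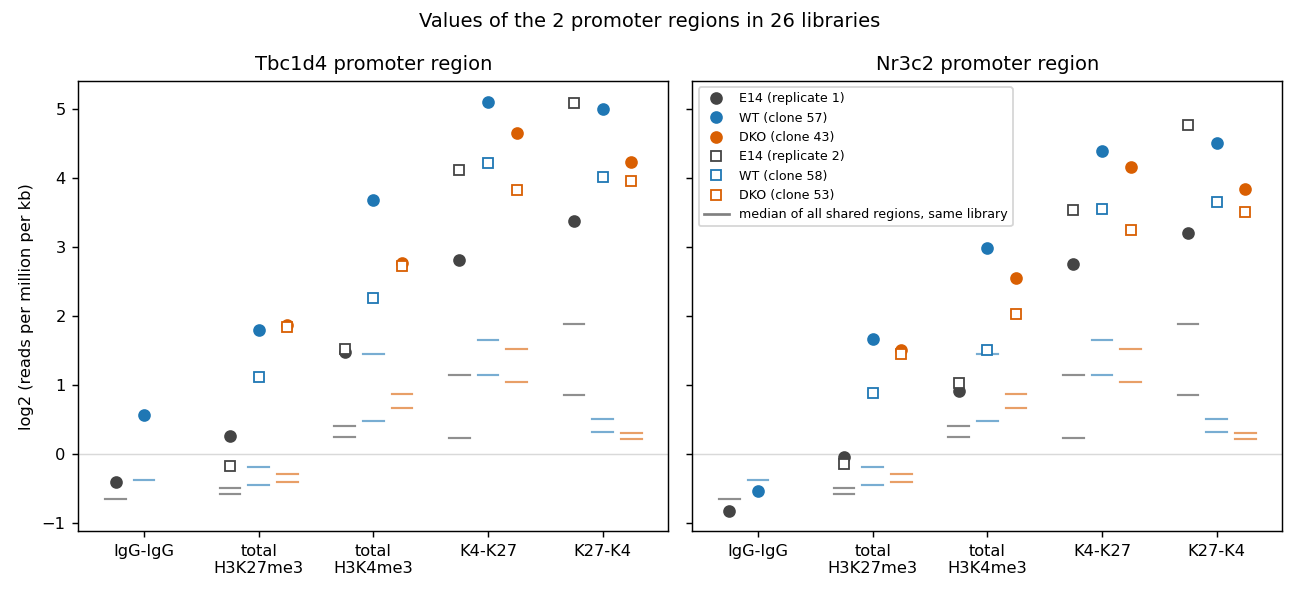
Level (log2 RPM per kb) of the shared E14 interval of Tbc1d4 (left) and Nr3c2 (right) in each of the 26 libraries, 1 point per library, by ChIP, with E14 in grey, WT in blue and DKO in orange, and short lines for the median of all shared intervals in the same library. In all 3 kinds of cells the K4-K27 and K27-K4 points lie above the total H3K4me3 and total H3K27me3 points, with WT clone 57 above clone 58.

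The clones were not used to choose the genes, and in them Tbc1d4 ranked 1 or 2 among the shared E14 intervals in each reChIP library. In WT clones 57 and 58 its K4-K27 was 5.10 and 4.21 and its K27-K4 was 5.00 and 4.01. In DKO clones 43 and 53 the K4-K27 was 4.65 and 3.82 and the K27-K4 was 4.22 and 3.96. These levels ranked 1 of 21857 in all 4 WT reChIP libraries and in both K27-K4 libraries of the DKO clones, and 2 in both DKO K4-K27 libraries. Clone 57 was above clone 58 in both orders, and DKO clone 43 was above clone 53 in both.

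The in-line totals of Tbc1d4 stood lower in the order of regions. Total H3K4me3 was 3.68 and 2.25 in the WT clones and 2.76 and 2.73 in the DKO clones, with ranks of 562, 601, 3126 and 896. Total H3K27me3 was 1.80 and 1.13 in the WT clones and 1.87 and 1.84 in the DKO clones, with ranks of 248, 303, 24 and 10. By the mean of the DKO clones Tbc1d4 ranked 12 of the shared intervals for total H3K27me3, but 4914 after the IgG-IgG level was subtracted. The IgG-IgG level of WT clone 57 was 0.57 (63 reads).

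At Nr3c2 the WT clones 57 and 58 gave 4.38 and 3.54 for K4-K27 (ranks 40 and 35) and 4.51 and 3.65 for K27-K4 (ranks 7 and 6). The DKO clones 43 and 53 gave 4.15 and 3.25 for K4-K27 (ranks 22 and 41) and 3.83 and 3.51 for K27-K4 (ranks 3 and 4). In every clone Nr3c2 therefore stood nearer the top in K27-K4 than in K4-K27. Total H3K4me3 was 2.98, 1.503, 2.55 and 2.02 in clones 57, 58, 43 and 53, at ranks 3812 to 4964. Total H3K27me3 was 1.66, 0.89, 1.51 and 1.46, at ranks 480, 898, 379 and 197. The IgG-IgG level of WT clone 57 was -0.53 (62 reads).

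**Figure D3:**
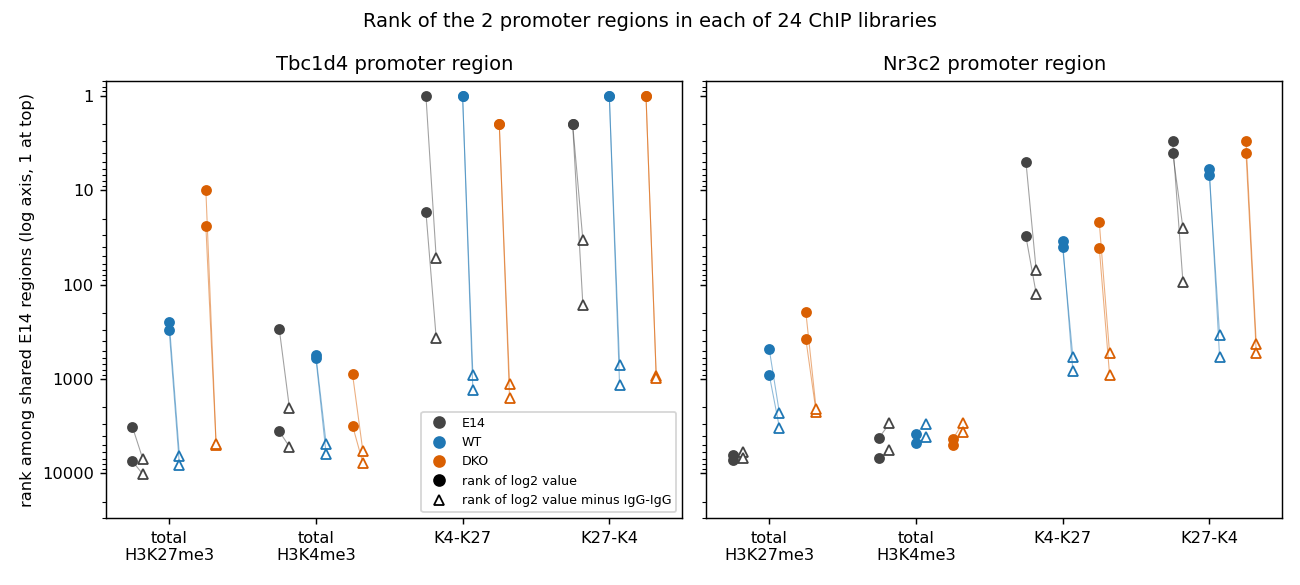
Rank of Tbc1d4 (left) and Nr3c2 (right) among the 21857 shared E14 intervals in the 24 ChIP libraries (log axis, rank 1 at the top), 1 circle per library by ChIP and by cells, joined to a triangle for the rank after subtraction of the IgG-IgG level. The reChIP circles of Tbc1d4 lie between 1 and 17 and those of Nr3c2 between 3 and 41, and all reChIP triangles lie lower.

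The mean of the 4 WT reChIPs was 4.58 at Tbc1d4 (rank 1) and 4.02 at Nr3c2 (rank 10), and the mean of the 4 DKO reChIPs was 4.16 (rank 1) and 3.68 (rank 5). Subtracting the IgG-IgG level of WT clone 57 moved Tbc1d4 to rank 794 in WT and 887 in DKO, and Nr3c2 to 412 and 433. The order of the regions by level was therefore not kept after subtraction. The Tbc1d4 level over IgG-IgG was 23.2-fold (17.9 to 30.4) in K4-K27 of clone 57 and 9.55-fold (7.34 to 12.6) in K4-K27 of clone 53, the highest and lowest of its 8 clone reChIPs. The Nr3c2 reChIPs lay between 13.7-fold (10.6 to 18.1) and 32.8-fold (25.5 to 42.9).

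The regions listed in the clone tables had other boundaries and were ranked among other regions. In the WT K4-K27 table Tbc1d4 was a region of 2400 bp (chr14:101607301-101609700), whose level in its own libraries ranked 10 and 23 of 26544, and in the WT K27-K4 table it ranked 3 and 6 of 31231. In the DKO tables it ranked 6 and 8 of 28227 for K4-K27, but 23 and 37 of 28540 for K27-K4, where the listed region was 4350 bp long. Nr3c2 ranked 298 and 469 in the WT K4-K27 table, 14 and 20 in the WT K27-K4 table, 54 and 57 in the DKO K4-K27 table and 9 and 10 in the DKO K27-K4 table. In the total H3K27me3 tables Tbc1d4 ranked 409 and 1876 of 21436 for WT and 26 and 31 of 32352 for DKO. In total H3K4me3 it ranked 140 and 164 of 31935 for WT, 184 and 1665 of 33905 for DKO and 102 and 2420 of 21970 for E14.

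The choice of boundaries moved the reChIP level of Tbc1d4 through the length of the region more than through its reads. In K27-K4 of WT clone 57 the 2400 bp region held 1434 of the 1459 reads of the 4350 bp region (98.3%), and in total H3K4me3 it held 687 of 699 (98.3%). In total H3K27me3 it held 176 of 217 (81.1%). Over all 11 listed Tbc1d4 regions and all reChIP libraries, 19 of 44 WT values and 21 of 44 DKO values were within the first 10 ranks of their table, and 42 of 44 in both were within the first 100. For the 12 Nr3c2 regions, 19 of 48 WT values and 24 of 48 DKO values were within the first 100. These ranks are out of 21436 to 36235 regions. Most listed regions of a gene overlap, some are the same interval, and they share most of their reChIP reads. The counts are therefore not of independent values.

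The levels themselves moved with the listed region. The Tbc1d4 K27-K4 level in the WT clones was 4.40 and 3.44 over the 4350 bp region of the DKO K27-K4 table (chr14:101606851-101611200, from -2009 to 2340 bp) and 5.24 and 4.24 over the 2400 bp region. The DKO K27-K4 level was 3.68 and 3.41 over the first and 4.46 and 4.19 over the second. In the clones the order of ChIPs was kept over both regions, with both reChIPs above both totals in each clone.

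The table in which Tbc1d4 was ranked mattered as much. In the E14 total H3K4me3 table it was chr14:101607151-101609550 (2400 bp), with E14 total H3K4me3 levels of 1.72 to 1.74, K4-K27 levels of 3.05 to 4.35 and K27-K4 levels of 3.59 to 5.33. Among the 21970 regions of that table the E14 K4-K27 replicates ranked it at 5 and 625, and the K27-K4 replicates at 77 and 103. Its WT reChIP ranks there were 30 to 54 and its DKO reChIP ranks 14 to 18. In the WT total H3K27me3 table (chr14:101607001-101609550) the WT reChIP ranks were 3 to 14 of 21436 and the DKO ones 7 to 21, and the IgG-IgG library of clone 57 ranked 119. In the DKO total H3K27me3 table (chr14:101606851-101609550) the WT reChIP ranks were 5 to 13 of 32352, the DKO ranks were 1 to 12, and IgG-IgG ranked 142. Tbc1d4 was therefore high in the IgG-IgG control too among regions called for total H3K27me3, and its part in the reChIP ranks was not tested.

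Nr3c2 depended on the table in the same way. In the E14 total H3K4me3 table it was chr8:76898551-76903350 (4800 bp), with E14 total H3K4me3 levels of 1.23 to 1.33 and ranks of 3610 and 8917, K4-K27 ranks of 254 and 650, and K27-K4 ranks of 207 and 336. In the DKO total H3K27me3 table it was chr8:76898401-76905750 (7350 bp, the longest member region), with WT K27-K4 levels of 3.36 to 4.23 at ranks 87 to 106 and DKO K27-K4 levels of 3.24 to 3.56 at ranks 67 to 74. Its total H3K27me3 there was 1.32 to 1.37 in the DKO clones (ranks 828 and 1603) and 0.76 to 1.45 in the WT clones (ranks 1716 and 4848). The IgG-IgG level of Nr3c2 had rank 12227 of 26544 in the WT K4-K27 table and 11118 of 28227 in the DKO K4-K27 table, whereas Tbc1d4 ranked 2686 and 1773 in the same tables. In K27-K4 Nr3c2 stood higher than in K4-K27 in both the WT K4-K27 table (94 and 140 against 298 and 469) and the DKO K4-K27 table (20 and 24 against 54 and 57).

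The Nr3c2 signal was uneven around the start site. In the WT total H3K27me3 table the gene had an upstream region, chr8:76898401-76902000 (3600 bp, from -3929 to -330 bp), and a downstream region, chr8:76902451-76903800 (1350 bp, from 121 to 1470 bp). The upstream region also holds the start site of Gm10649 and a predicted start site of Nr3c2, and the start-site sequence printed above lies in the gap between the regions. In all 17 clone libraries the upstream region had the higher level per kb.

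In K27-K4 the upstream and downstream levels were 5.15 and 2.52 in WT clone 57, and 4.28 and 1.65 in clone 58. The DKO clones gave 4.40 and 2.73 in clone 43, and 4.09 and 2.22 in clone 53. In K4-K27 they were 4.96 and 3.22 in clone 57, 4.15 and 1.87 in clone 58, 4.67 and 3.39 in clone 43, and 3.84 and 1.85 in clone 53. The difference ran from 1.28 to 2.64 over the 8 reChIP libraries (median 1.93), from 0.71 to 1.30 over the 4 total H3K27me3 libraries and from 0.67 to 1.13 over the 4 total H3K4me3 libraries. Within each clone both reChIPs had a larger difference than both totals. The IgG-IgG library of clone 57 had a difference of 1.81 as well, from 56 and 6 reads, a 3.50-fold ratio per length with an exact 95% interval of 1.51 to 9.94, and its part in the reChIP difference was not tested. The upstream region ranked between 3 and 9 of 21436 in the 4 K27-K4 libraries, and the downstream region between 1270 and 3600.

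**Figure D4:**
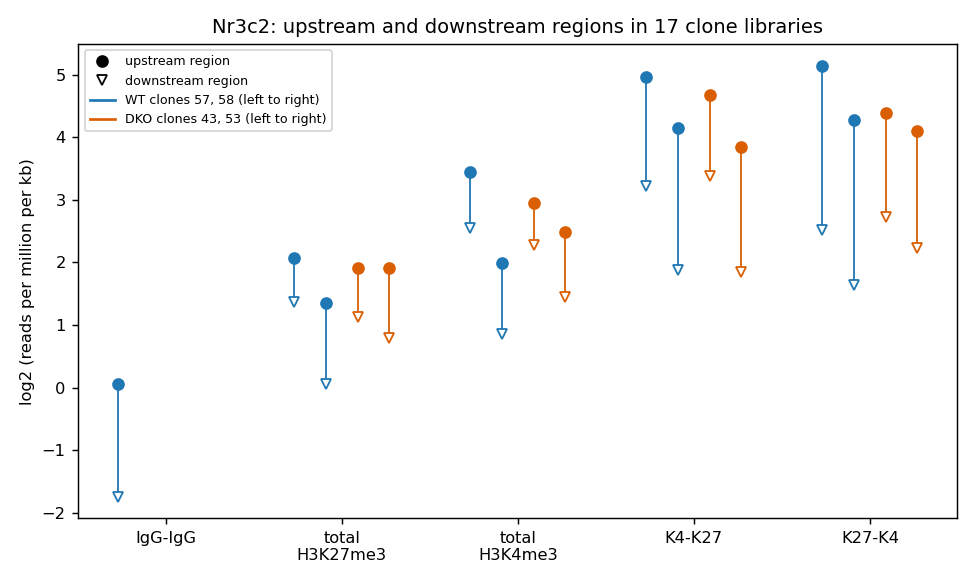
Level (log2 RPM per kb) of the upstream (circle) and the downstream (triangle) Nr3c2 region in each of the 17 clone libraries by ChIP, joined by a line per library, with WT in blue and DKO in orange. Every line falls from upstream to downstream, by 1.28 to 2.64 in the reChIPs, by 0.67 to 1.30 in the totals and by 1.81 in IgG-IgG.

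Whether the reChIPs exceeded the in-line totals at the members was tested within the clones, with limma over all 21857 shared intervals and 4 reChIP against 4 total libraries from 2 clones. The spread in this test pools both orders of the reChIP, both marks of the totals and both clones, so the 4 libraries of a kind are not 4 independent samples. Every tested interval was listed for both reChIP orders in E14, and the members were chosen by their E14 reChIP levels. That choice favours reChIPs above totals, at the members and over all intervals, so the calls cannot show an excess apart from it. The paper also describes the in-line totals as noisier, with lower starting material as the likely reason. In the WT clones the reChIP mean at Tbc1d4 was 4.58 ± 0.55 (SD, n = 4) and the mean of the totals 2.21 ± 1.08 (n = 4), a log2 difference of 2.36 (SE 0.53, limma adjusted p = 0.0488). At Nr3c2 the means were 4.02 ± 0.50 and 1.76 ± 0.88, a difference of 2.26 (SE 0.46, limma adjusted p = 0.0424). Both passed the call rule used throughout (a log2 difference over 1 and an adjusted p under 0.05), and no reChIP value overlapped a total. In the WT clones 4.35% of shared intervals were called higher in the reChIPs and 0% lower, with 3424 below an unadjusted p of 0.05 in either direction. The difference ranked 28 of 21857 at Tbc1d4 and 59 at Nr3c2, and its median over all intervals was 0.65. With the clone as a block, which pairs the libraries by cells, the count of WT calls rose from 950 to 2252, and the adjusted p was 0.0149 at Tbc1d4 and 0.0038 at Nr3c2.

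In the DKO clones the difference was 1.86 at Tbc1d4 (SE 0.28, limma adjusted p = 0.0133), from 4.16 ± 0.37 in the reChIPs to 2.30 ± 0.51 in the totals. At Nr3c2 it was 1.80 (SE 0.29, limma adjusted p = 0.0152), from 3.68 ± 0.39 to 1.88 ± 0.51. Both genes were called, the values again did not overlap, and 5.49% of shared intervals were called higher and 0.0183% lower in the DKO clones. With any 1 clone left out 0 of the 21857 intervals were called, the members included (limma adjusted p of 0.109 to 0.667 in WT and 0.447 to 0.967 in DKO), so these runs say nothing about the members in particular. The 4 calls were also lost without limma's trend and robust options (0.0933 for both in WT, 0.065 for both in DKO, with 0 intervals called), and when each library was centred on its own median (0.351 and 0.353 in WT, 0.993 for both in DKO) or on the median of each chromosome (0.313 and 0.325 in WT, 0.616 and 0.956 in DKO). The members' differences stayed positive in every alternative run, from 1.24 to 2.42.

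The order of the antibodies made no called difference at either gene in the WT clones. K27-K4 minus K4-K27 was -0.11 in clone 57 and -0.20 in clone 58 at Tbc1d4, and 0.12 and 0.10 at Nr3c2. Neither mean was called, with -0.15 (SE 0.86, limma adjusted p = 0.938) and 0.11 (SE 0.77, limma adjusted p = 0.950). These standard errors are of the unpaired fit, so they hold the gap between the clones as well. With each library centred on its own median the differences were 0.83 (limma adjusted p = 0.209) and 1.10 (limma adjusted p = 0.0594), also not called. Neither gene was called with the clone as a block. In this comparison 29.7% of shared intervals were called lower in K27-K4 and 1.32% higher. In the DKO clones the difference was -0.43 and 0.13 at Tbc1d4 and -0.32 and 0.25 at Nr3c2, and the clones differed in sign. In E14 it was positive in both replicates, with 0.56 and 0.97 at Tbc1d4 and 0.45 and 1.23 at Nr3c2. The medians of the shared intervals as a whole in E14 were 0.58 and 0.78.

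Loss of DPPA2 and DPPA4 was compared between the 2 DKO and 2 WT clones in each ChIP, over all distinct regions of the clone tables, and neither promoter was called in any. In K4-K27 the Tbc1d4 region was 4.89 and 4.07 in the DKO clones against 5.35 and 4.46 in the WT clones, a difference of -0.42 (SE 0.75, limma adjusted p = 0.931). In K27-K4 it was 4.23 and 3.97 against 5.00 and 4.02, a difference of -0.41 (SE 0.69, limma adjusted p = 0.753). The groups overlapped in both. At Nr3c2 the differences were -0.26 (SE 0.70, limma adjusted p = 0.969) and -0.42 (SE 0.67, limma adjusted p = 0.739), also with overlap. Over all tested regions 1.19% were called lower and 0.00557% higher in DKO for K4-K27, and 2.24% lower and 0.027% higher for K27-K4.

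The totals gave no call at the members either. Total H3K4me3 at Tbc1d4 was 3.01 and 2.97 in DKO against 3.92 and 2.50 in WT, a difference of -0.21 (SE 0.92, limma adjusted p = 1.00), and at Nr3c2 the difference was 0.04 (SE 0.86). For total H3K27me3 both DKO values at Tbc1d4 (2.02 and 1.98) lay above both WT values (1.95 and 1.26), a difference of 0.40 that did not pass the test (SE 0.42, limma adjusted p = 0.722). Without WT clone 57 it was 0.74 (limma adjusted p = 0.0255), still under the log2 difference of 1 that a call needs, and without WT clone 58 it was 0.047 (limma adjusted p = 0.918). At Nr3c2 it was 0.20 (SE 0.42) upstream and 0.25 (SE 0.42) downstream, with overlap. The background was 2.47% lower and 0.254% higher for total H3K4me3, and 1.78% lower and 0.976% higher for total H3K27me3. The median difference of all tested regions was -0.15 for K27-K4, 0.13 for total H3K4me3 and 0.11 for total H3K27me3. The WT clones differed from each other by more than the genotypes did at Tbc1d4, with clone 57 minus clone 58 at 0.89 in the K4-K27 and 0.99 in the K27-K4 reChIP and at 1.42 and 0.68 in the totals of H3K4me3 and H3K27me3 over the shared interval. Over all shared intervals the medians of these clone differences were 0.52, 0.36, 1.01 and 0.29. The standard errors of the members' differences ran from 0.41 to 0.92 with 2 clones each, and a miss of the call rule does not show that a level was unchanged.

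**Figure D5:**
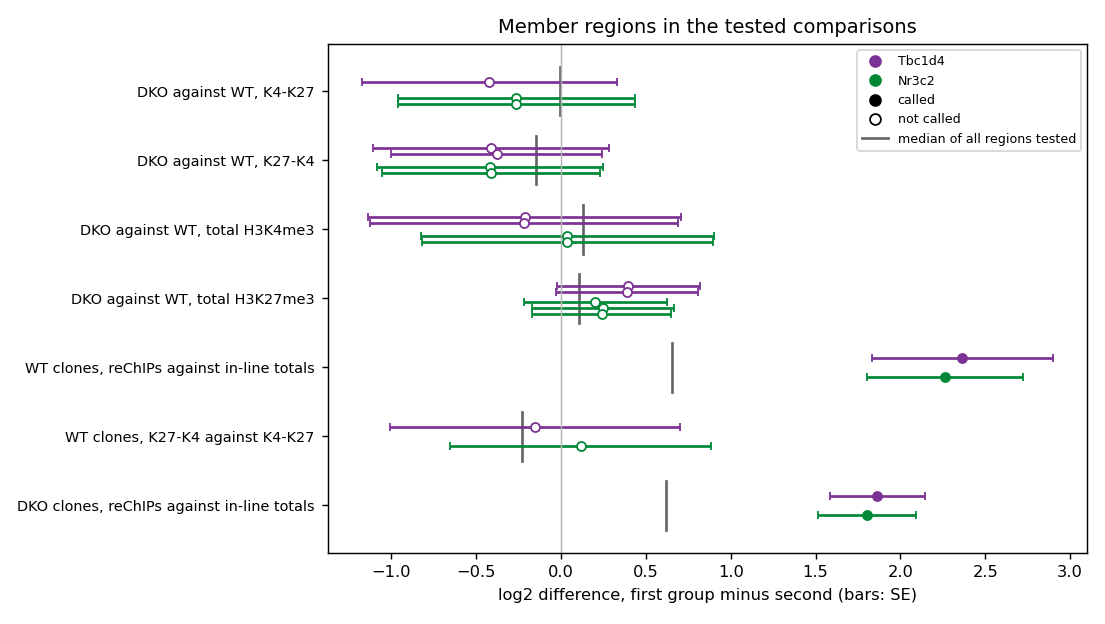
Log2 differences at the listed Tbc1d4 and Nr3c2 regions (points, filled where called, with bars of 1 SE from limma) in each tested comparison, with grey marks for the median of all regions tested. The DKO against WT points lie between -0.42 and 0.40 with bars that cross 0, and the 4 reChIP against total points lie between 1.80 and 2.36.

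Both members lie in CpG-rich sequence. The shared Tbc1d4 interval had a GC content of 54.4% and 4.98 CpGs per 100 bp (142 CpGs), and the Nr3c2 interval 54.7% and 4.37 (262 CpGs), against medians of 50.1% and 2.37 over all 21857. The CpG density was lower in 96.0% of the intervals than at Tbc1d4 and in 92.5% than at Nr3c2. The observed to expected CpG ratio was 0.683 and 0.586, with a median of 0.384.

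The chromosomes of the members had levels of their own. In the clone libraries the median of the shared intervals of chromosome 14 was 0.47 to 0.80 log2 units below that of the whole library (0.58 below in the IgG-IgG library), and in E14 it was 0.03 to 0.12 below. The median of chromosome 8 was 0.02 to 0.17 above in the WT clones and 0.17 to 0.33 above in the DKO clones. The part of these shifts in the members' levels was not tested.

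The shape of the profile over the 24 ChIP libraries, each centred on its median, was close to that of other shared promoter intervals. The 5 nearest to Tbc1d4 by Pearson's r were Myb (r = 0.991), a transcription factor of blood progenitors, Hivep2 (0.990), Cadps (0.990), Fgf13 (0.987) and Slc35f1 (0.987). Those nearest to Nr3c2 included Foxp1 (0.993), a forkhead transcription factor, Cadm2 (0.991), Efna5 (0.989) and Casz1 (0.986). The members correlated with each other at 0.978, place 11 in the list of Tbc1d4 and place 15 in that of Nr3c2, while the median r over the intervals was 0.163 and 0.0868. These are descriptions over libraries that share cells, batch and depth, and by Euclidean distance only 1 of the 5 names remained for each gene, Slc35f1 and Efna5. By that distance Nr3c2 was at place 2 for Tbc1d4, and Tbc1d4 at place 41 for Nr3c2.

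The wider pathways of the members were followed with a list for each. Of 19 other genes of insulin signalling and GLUT4 traffic, 18 had a shared E14 interval at a promoter, all but Vamp2, and of 20 other genes of mineralocorticoid signalling and steroid receptors 15 had one, all but Hsd11b1, Cyp11b2, Fkbp4, Fkbp5 and Hsp90aa1. Over all RefSeq genes 58.5% had one. The median E14 reChIP mean was 1.29 for the insulin list, 1.92 for the steroid list and 1.24 for all genes. The highest insulin gene was Irs1, an adaptor of the insulin receptor, at 3.12 (rank 90), and the lowest was the glucose transporter gene Slc2a1 at 0.13 (rank 20082). At Slc2a1 the E14 K4-K27 was -1.69 and -0.18 and the K27-K4 0.74 and 1.64, with IgG-IgG at 0.004. A shared interval at a promoter therefore does not show by itself that the gene is bivalent. The highest steroid gene was Pgr, the progesterone receptor, at 3.16 (rank 70).

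These genes were also followed in the clones. Their reChIPs and totals were compared over the shared intervals, with the same limit from the choice of intervals. Against the in-line totals the reChIPs were higher in WT at 3 of 18 insulin genes (Akt1, Irs1 and Tbc1d1, the paralog of Tbc1d4) and at 3 of 15 steroid genes (Pgr, Zbtb16 and Tsc22d3), against 4.35% of all shared intervals, and in DKO at the same 3 insulin genes and at Pgr and Zbtb16, against 5.49%. All of these list calls were lost with any 1 clone left out, without limma's trend and robust options and under both centrings, where no interval was called. In the comparison of the orders 11 of 18 insulin genes and 4 of 15 steroid genes were called lower in K27-K4, against 29.7% of all shared intervals. A gene was counted if any of its regions was called, while the shares are per interval, at promoters or not, so the 2 are not like for like. Between DKO and WT no insulin gene was called in any ChIP, with 19, 11, 19 and 3 of them tested in the reChIPs K4-K27 and K27-K4 and the totals of H3K4me3 and H3K27me3, and of the steroid list 18, 13, 18 and 9 were tested. Over all regions 1.19% to 2.47% were called lower and 0.00557% to 0.976% higher, so that no call is near what these shares give for so few genes. Of the steroid list Esr1, the oestrogen receptor, was lower in DKO in K4-K27 by a difference of -5.63 (SE 0.80, limma adjusted p = 1.9e-08), in K27-K4 by -4.51 (SE 0.44, limma adjusted p = 2.57e-10) and in total H3K4me3 by -3.14 (SE 0.55, limma adjusted p = 1.78e-05). Over its shared E14 interval the gaps were smaller. There K4-K27 was 2.70 and 1.78 in WT against -2.47 and -0.83 in DKO. K27-K4 was 2.97 and 2.00 against -1.64 and -0.38, and total H3K4me3 1.29 and 0.31 against -1.31 and -1.15. The size of the loss therefore depends on the region. Hsd11b1, which activates glucocorticoids, was lower in total H3K27me3 in 1 of its 2 regions (-2.10, SE 0.48, limma adjusted p = 0.004), and the other was at 1.15 (SE 0.43, limma adjusted p = 0.126). The Hsd11b1 call was lost when libraries were centred on their own medians or on chromosome medians, where no region was called in total H3K27me3.

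Library depth ran from 6741245 to 47903464 reads with a median of 16875029. All 7 ESC marker promoters on the list used had a total H3K4me3 region in E14, WT and DKO, and of 6 markers of differentiated cells 0, 1 (Gfap) and 0 had one. The Dppa4 promoter was at 2.34 and 1.45 in total H3K4me3 of the WT clones and at 2.39 and 1.56 in the DKO clones, so that promoter H3K4me3 does not check the knockout.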

How the data were processed

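The members and gene lists were chosen with earlier results of these data known. The authors trimmed reads with Trim Galore 0.6.6 and aligned them with BWA 0.7.13 (mm10/GRCm38.p6; SAMtools 1.9, Picard 2.6.0 and deepTools 3.5.0 are also in the submitters' processing notes), and deposited log2 values from SeqMonk, RPM per kb of region, duplicates kept and IgG not subtracted. The values were turned back into reads (of those under 100 reads, 100% were whole within 0.02; 0 reads entered as 0.9). Of the columns, 240 were used and 32 of no sample were not. Start sites for the regions were those of curated RefSeq transcripts (31603), and promoter sequences came from a separate RefSeq table (32851 sequences, with several for some genes).

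Levels were compared with limma 3.58.1 (R 4.3.3, trend and robust), Benjamini-Hochberg adjustment over all regions tested, with calls at a log2 difference over 1 together with an adjusted p under 0.05. A simulation of independent noise with large added shifts was also run. It has no pairing by clone, so it does not check the tests at the members. A count test was not run on values scaled by region length. Intervals of ratios are exact (95%). DKO and WT were compared over the distinct regions of the clone tables, and reChIPs, totals and orders over the 21857 shared E14 intervals. Libraries of 1 clone come from the same cells, so they are paired by clone; the deviations of the 2 reChIPs of a clone correlated at 0.00763 in WT and 0.0493 in DKO. Named genes were the members, the 5 most alike promoters of each, and the highest, lowest and called genes of each list. A few genes that this rule names are not reported here. Figures were drawn with matplotlib 3.10.9 and other values computed with Python 3.11.15, pandas 2.3.3, numpy 2.4.6 and scipy 1.17.1.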

Additional observations from a re-analysis of the deposited data

Results flagged for a closer look

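At Tbc1d4 the order of the antibodies gave opposite signs in E14 and in the WT clones. K27-K4 minus K4-K27 had a mean of 0.77 in E14 (positive in 2 of 2 replicates) and of -0.15 in the WT clones (negative in 2 of 2). With each library centred on its own median the WT mean was 0.83, and centred on chromosome medians 0.66, so that the sign in WT turned under both centrings. The difference between the 2 was not tested, and cells and sequencing batch cannot be told apart in it. The shared intervals as a whole moved the same way, with medians of 0.58 and 0.78 in E14 and -0.29 and -0.32 in the WT clones. Relative to those medians, which are medians of the differences, Tbc1d4 was at -0.02 and 0.20 in E14 and at 0.18 and 0.12 in the WT clones. The centring above subtracts the median of each library instead, so the 2 measures need not give the same value.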

How the results depend on the processing

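Between DKO and WT neither member was called under any alternative run, but the sign of the differences depended on single clones, except for Tbc1d4 total H3K27me3, which stayed positive. Leaving out 1 clone each gave -0.87 to 0.025 at Tbc1d4 in K4-K27 (-0.71 to 0.19 and -0.71 to 0.18 in the Nr3c2 regions), -0.90 to 0.073 and -0.86 to 0.10 in K27-K4 (Nr3c2 -0.85 to 0.011 and -0.84 to 0.018), -0.93 to 0.50 and -0.93 to 0.49 in total H3K4me3 (Nr3c2 -0.71 to 0.78 in both) and 0.05 to 0.74 in total H3K27me3 (Nr3c2 -0.16 to 0.56, -0.40 to 0.90 and -0.11 to 0.58). Centred on chromosome medians, Nr3c2 total H3K4me3 was -0.080, and the Tbc1d4 order difference in WT was 0.83 centred on library medians and 0.66 on chromosome medians (Nr3c2 1.10 and 1.05).

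Counts of called regions moved more. Without limma's trend and robust options they were 7715 for DKO against WT in K4-K27 and 0 for reChIPs against totals in WT and DKO, where the members' adjusted p was 0.0933 and 0.065. Centred on library medians they were 3899 (total H3K4me3), 0 (total H3K27me3), 0 (reChIPs against totals, WT and DKO) and 12000 (WT order). Centred on chromosome medians they were 891 (K27-K4), 4188 (total H3K4me3), 0 (total H3K27me3), 0 (reChIPs against totals, WT and DKO) and 11899 (WT order). With the lowest 25% of regions removed they were 336 (total H3K4me3), 314 (total H3K27me3) and 1463 (WT reChIPs against totals). Over the shared E14 regions only they were 1060 (K4-K27), 2043 (K27-K4) and 618 (total H3K27me3). Leaving out 1 clone each gave 243 to 558 (K4-K27), 482 to 8630 (K27-K4), 74 to 6018 (total H3K4me3), 133 to 650 (total H3K27me3) and 0 to 0 (reChIPs against totals, in WT and in DKO). The clone as replicate block gave 2252 calls for WT reChIPs against totals in place of 950, and changed no call at the members. The causes were not tested. The lone clone left in a group is assumed to vary like the others, and for the WT order no such run was possible, since 1 library against 1 has no residual degrees of freedom. A window of 5 kb gave 13 regions at Tbc1d4 and 25 at Nr3c2, and the start sites of all RefSeq models, chosen after seeing the data, gave 12 and 19.

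The IgG-IgG comparisons are limited by depth, with 19 to 63 reads in the members' intervals, and by 1 IgG-IgG library standing for all 4 clones and 1 for both E14 replicates, which the counting intervals do not cover.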
